A study of Mus musculus with 8 samples.

Results

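The miRNAs mmu-miR-199a-3p, mmu-miR-199a-5p, mmu-miR-199b* and mmu-miR-214 were followed in mouse brown adipose tissue, a fat depot that makes heat, after a day in the cold. They were taken from the array by exact name among the non-control spots, which gave 4 of the 566 mouse miRNAs on the array and 8 probes, and 7 of these probes passed the filter on dim signal described below. The animals were 6 male C57Bl6N mice aged 8 weeks, of which 3 were held at 8 °C for 24 h and 3 stayed at room temperature (21 °C). The labels name no allele, transgene or drug in either group. Trizol total RNA of the whole tissue was Cy3-labelled and read on 1-colour Agilent miRNA arrays. Replicates were separate mice, and mouse 1 (cold) and mouse 4 (room temperature) were each hybridised to 2 arrays, which were averaged.

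MicroRNAs are short RNAs cut from a hairpin precursor, and either arm of the hairpin (5p or 3p) can be loaded onto an Argonaute protein to lower the output of messenger RNAs that pair with its seed. The miR-199a-2 and miR-214 hairpins are cut from the long non-coding RNA Dnm3os, which is read from the strand opposite the dynamin gene Dnm3. Both miRNAs are known from mesenchymal cells such as fibroblasts, smooth muscle cells and perivascular cells, and from studies of fibrosis and of heart and skeletal development. In fat they mark mainly the connective tissue and precursor cells around the adipocytes, although adipocytes can express them too. In RNA of bulk tissue, fewer cells of a type and less RNA per cell cannot be told apart.

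The mature sequences are shown because they decide which loci a probe can report. They were taken from RefSeq on the mouse build GRCm38.p6, which held 3 of the 4 members by name, and capitals mark the seed (bases 2 to 8).
miR-199a-3p: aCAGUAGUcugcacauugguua
miR-199a-5p: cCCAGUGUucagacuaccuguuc
miR-214 (now miR-214-3p): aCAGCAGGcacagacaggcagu
The fourth member is miR-199b* (now miR-199b-5p). miR-199a-3p is cut from Mir199a-2 at chr1:162217883-162217904 (plus strand) and from Mir199a-1 at chr9:21496498-21496519 (minus strand), and miR-199b-3p of Mir199b on chromosome 2 has the identical 22 bases. A signal for miR-199a-3p can therefore come from any of these loci. miR-199a-5p lies on the other arm of the same 2 miR-199a hairpins, at chr1:162217844-162217866 and chr9:21496537-21496559. miR-214 lies at chr1:162223438-162223459 (plus strand).

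The Dnm3os hairpins are shown with their mature arms in capitals, to set the 5p and 3p products of 1 precursor side by side.
Mir199a-2: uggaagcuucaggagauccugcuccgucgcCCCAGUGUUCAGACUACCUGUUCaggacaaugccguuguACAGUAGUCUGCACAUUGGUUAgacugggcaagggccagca
Mir214: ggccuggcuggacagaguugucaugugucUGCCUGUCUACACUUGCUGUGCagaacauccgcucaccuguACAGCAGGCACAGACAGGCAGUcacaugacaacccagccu
Both hairpins lie inside the annotated Dnm3os interval (7928 bases, a long non-coding RNA) and inside that of Dnm3, with 5444 bases between them. Mir199b lies inside Dnm1 and Mir199a-1 inside Dnm2, so each copy sits in a dynamin gene. miR-199a-3p and miR-214 share their 4 leading bases but not their seed. Among the mature miRNAs of the RefSeq table, the seed of miR-199a-3p was shared with miR-199b-3p only and that of miR-214 with miR-761 only. The Mir199b hairpin holds, at its bases 26 to 48, a stretch that differs from miR-199a-5p at 1 of 23 bases (C10U, counted from 1 at the 5′ end of miR-199a-5p), outside the seed. Whether the probes of miR-199a-5p and miR-199b* tell these apart was not tested.

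Signal was read from 12493 spots per array, and the members' probes had 10 spots each. Each array was scaled to its 75th percentile of signal, which was 793 ± 149.7 units for the cold group and 1085 ± 286 units for the other (SD, n = 3 mice; exact permutation test, 2-sided, p = 0.2). Of 1672 mouse probes, 329 were kept because over 0.5 of the spots rose well above background throughout the arrays of a group, and they covered 189 miRNAs. All 8 arrays lay on 1 slide, with the cold arrays in slide row 1 and the room temperature arrays in slide row 2, so slide row and group cannot be told apart. Within the arrays, brightness changed with the row of the spot, and in opposite ways in the groups. Over probes well above background, rows 1 to 16 had between 4.43% and 8.36% of the brightness of the brightest band on the cold arrays and between 64.5% and 84.8% on the room temperature arrays. Rows 177 to 192 had between 49.9% and 82.7% on the cold arrays and between 5.35% and 9.12% at room temperature. The difference between groups moved with the place of a probe's spots, and each main result below is also given with these local factors divided out, an alternative chosen after seeing the data.

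**Figure D1:**
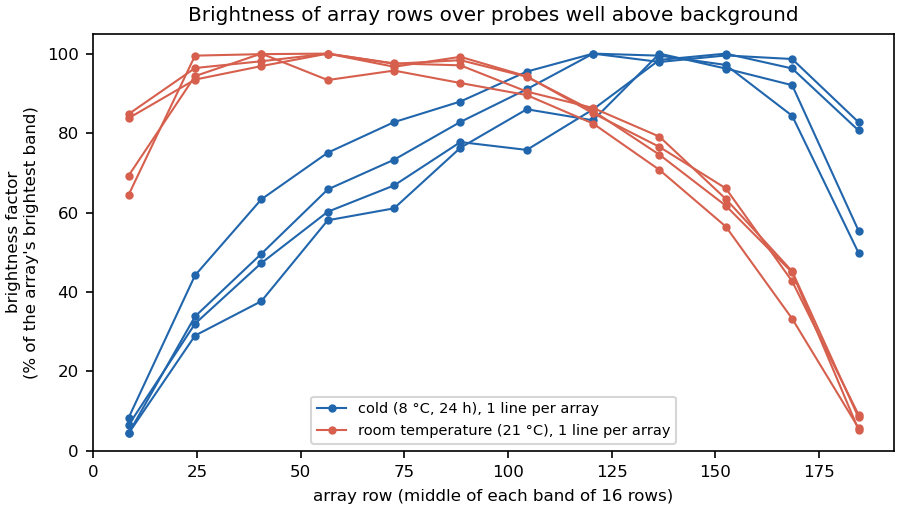
Brightness factor of each band of 16 array rows, in percent of the brightest band of the same array, against array row, with 1 line per array (4 cold in blue, 4 room temperature in red). The cold arrays were dimmest in the first rows, at 4.43% to 8.36%, and the room temperature arrays in the last rows, at 5.35% to 9.12%.

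Of the 4 members, 3 fell in the cold, namely mmu-miR-199a-3p, mmu-miR-214 and mmu-miR-199b*, and mmu-miR-199a-5p did not pass the test. The miR-214 call, here and with the local factors divided out, is not a clean test. It averages in probe A_54_P2619, which passed the filter on dim signal only through the room temperature group, in which it was high. Its other probe, A_54_P2620, differed by −0.70 (log2; limma over probes, adjusted p = 0.0193). A member was called when limma's p with Benjamini-Hochberg adjustment over all 189 miRNAs was under 0.05. Of all miRNAs tested, 6.88% were called lower and 15.3% were called in either direction, and the median change was −0.022 on the log2 scale. Once the local factors were divided out, 3 of the 4 members were again called lower, the same 3, against 5.29% of all miRNAs (15.9% in either direction). The median of all miRNAs was then 0.060. The local factors changed which miRNAs were called elsewhere: 21 were called both ways, which was 72.4% of the 29 called as deposited and 70% of the 30 called with the factors divided out.

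**Figure D2:**
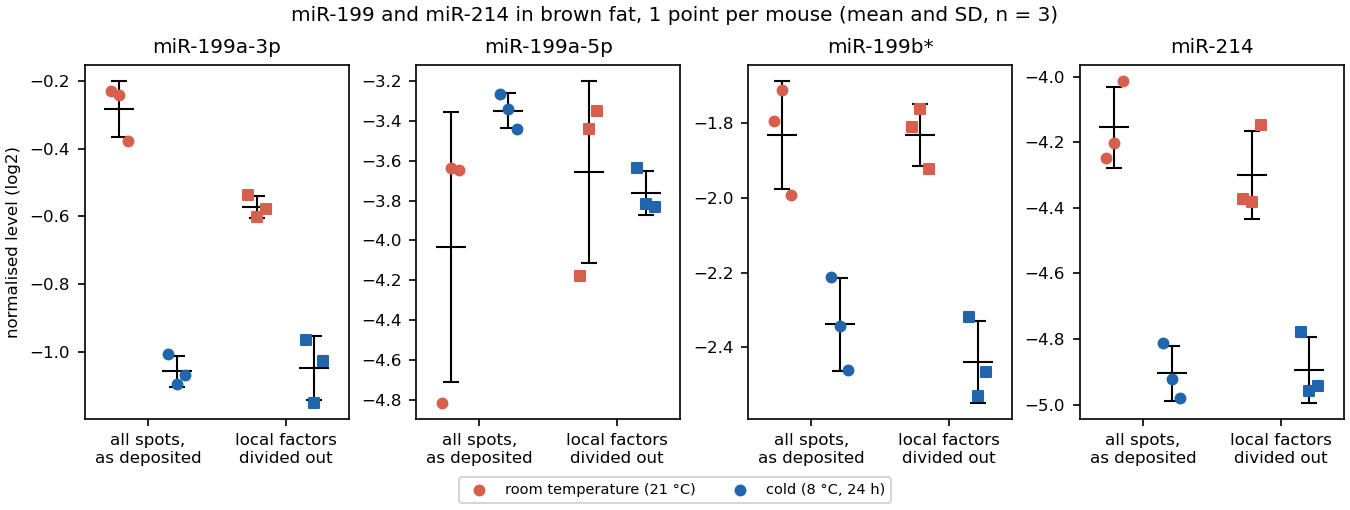
Normalised level (log2) of each member in each mouse, with mean and SD (n = 3 mice per group). Circles are from all spots as deposited, squares with the local factors divided out. Cold mice lay below room temperature mice for miR-199a-3p, miR-199b* and miR-214 either way, while for miR-199a-5p they lay above as deposited and among them with the factors divided out.

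mmu-miR-199a-3p, the 3p arm of the miR-199 hairpins, was at a normalised level of −1.01, −1.10 and −1.07 (log2) in cold mice 1, 2 and 3. It was at −0.23, −0.24 and −0.38 in room temperature mice 4, 5 and 6. The value of mouse 1 is the mean of 2 arrays, which read −1.25 and −0.77. All 3 cold mice were lower than all 3 others, as was so for 18.5% of the miRNAs tested. The difference of cold minus room temperature was −0.77 ± 0.119 (log2; SE, n = 3 in each group; limma, adjusted p = 0.0105), or 1.71-fold lower, with a 95% interval from −1.05 to −0.50. With the local factors divided out the difference was −0.47 ± 0.0995 (SE, n = 3; limma, adjusted p = 0.0285), or 1.39-fold lower, and the groups still did not overlap (11.6% of the miRNAs). The call was kept without each mouse in turn, with differences from −0.82 to −0.75 and a highest adjusted p of 0.0475 by limma.

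The fall of miR-199a-3p was seen by both of its probes. Probe A_54_P2381 read 642, 641 and 722 units in cold mice 1, 2 and 3 before any scaling, and 1272, 1077 and 1724 units in mice 4, 5 and 6. Probe A_54_P2380 read 166, 238 and 265 units in mice 1 to 3 and 562, 494 and 680 units in mice 4 to 6. Neither probe's groups overlapped (exact permutation test of the unscaled signal, 2-sided, p = 0.1 for each, the smallest that 3 mice against 3 allow). Without scaling the median difference of all miRNAs was −0.46 (log2), and 33.7% of the 329 kept probes separated the groups with the cold mice below. After scaling, A_54_P2380 differed by −0.99 ± 0.148 and A_54_P2381 by −0.56 ± 0.156 (log2, SE, n = 3; limma, adjusted p = 0.00724 and 0.0385 over all 329 probes, of which 10% were called lower and 19.8% separated the groups in this direction). After division by the local factors they came closer to each other, at −0.55 and −0.40 (limma, adjusted p = 0.0298 and 0.0694, where 3.65% of probes were called lower and 11.9% separated the groups), so A_54_P2381 alone was then not called. A_54_P2381 was also not called without mouse 2, 3, 4, 5 or 6, where its difference was −0.48, −0.50, −0.54, −0.56 and −0.57 in that order (limma, adjusted p = 0.103, 0.126, 0.0952, 0.0875 and 0.105).

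mmu-miR-214, whose hairpin lies in Dnm3os beside that of miR-199a-2, was at −4.81, −4.92 and −4.98 (log2) in cold mice 1, 2 and 3 and at −4.25, −4.20 and −4.01 in mice 4, 5 and 6. The cold mice were close together, and each was below the lowest of the others, as was so for 18.5% of the miRNAs tested. The difference was −0.75 ± 0.128 (log2, SE, n = 3; limma, adjusted p = 0.0121), or 1.68-fold lower, with a 95% interval from −1.05 to −0.45. It was −0.59 ± 0.115 once the local factors were divided out (limma, adjusted p = 0.0238), or 1.51-fold lower. Both values average 2 probes, of which 1 passed the filter on dim signal only through the room temperature group. With probes well above background on every array, which left the other probe alone, the difference was −0.70 ± 0.138 (limma, adjusted p = 0.0333). Without room temperature mouse 6, in which miR-214 was highest, the difference was −0.68 and just missed the threshold (limma, adjusted p = 0.0544).

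The probes of miR-214 lay near the detection limit. The lowest signal called well above background was between 9.95 and 15.2 units over the arrays. Probe A_54_P2619 read 12.1, 14.9 and 17.0 units in mice 1 to 3 and 30.7, 25.6 and 51.3 units in mice 4 to 6. On the 4 cold arrays 5, 5, 6 and 7 of its 10 spots passed as well above background, so it was kept only through the room temperature group, where at least 7 were on each array. Probe A_54_P2620 read 41.4, 51.0 and 49.7 units in mice 1 to 3 and 88.0, 85.8 and 147.8 units in mice 4 to 6. For both probes the unscaled cold mice lay below the others, as was so for 33.7% of kept probes. The exact permutation p of A_54_P2620 was 0.1 (2-sided).

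After scaling, A_54_P2620 differed by −0.70 ± 0.145 (log2, SE, n = 3; limma, adjusted p = 0.0193), and by −0.66 after division by the local factors (limma, adjusted p = 0.0252). A_54_P2619 differed by −0.80 and then by −0.53, given as a description with no test, since it passed the filter only through the group in which it was high. A_54_P2620 was, as deposited, not called without mouse 2, 3, 5 or 6, at −0.71, −0.62, −0.68 and −0.64 (limma, adjusted p = 0.0691, 0.0606, 0.0534 and 0.0757). The other arm of the hairpin, miR-214*, reached at most 1.20 units on the cold arrays and 2.11 units on the others, below the signals called well above background, and was not tested.

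mmu-miR-199b*, the 5p arm of the Mir199b hairpin, was at −2.21, −2.34 and −2.46 (log2) in cold mice 1, 2 and 3 and at −1.80, −1.71 and −1.99 in mice 4, 5 and 6. The groups did not overlap, with the cold mice below, as was so for 18.5% of the miRNAs tested. The difference was −0.50 ± 0.137 (log2, SE, n = 3; limma, adjusted p = 0.0453), or 1.42-fold lower, with a 95% interval from −0.82 to −0.19. Position taken into account, it was larger, at −0.61 ± 0.107 (limma, adjusted p = 0.0172), or 1.52-fold lower. As deposited the call was narrow: it was lost without mouse 2, 3, 4, 5 or 6, at −0.50, −0.44, −0.49, −0.44 and −0.58 (limma, adjusted p = 0.121, 0.139, 0.0957, 0.112 and 0.0721).

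The probes of miR-199b* gave different values as deposited and closer ones once position was taken into account. Probe A_54_P3539 read 208, 230 and 236 units in mice 1 to 3 and 523, 470 and 708 units in mice 4 to 6. Probe A_54_P3538 read 89.7, 117.8 and 117.7 units in mice 1 to 3 and 154, 148 and 177 units in mice 4 to 6. Both separated the groups before scaling, as did 33.7% of kept probes in this direction (exact permutation test, 2-sided, p = 0.1 for each). After scaling, A_54_P3539 differed by −0.88 ± 0.144 (log2, SE, n = 3; limma, adjusted p = 0.00945) and A_54_P3538 by −0.13 ± 0.159 (adjusted p = 0.606), with groups that overlapped. A_54_P3538 had 6 of its 10 spots in array rows 129 to 192, where the cold arrays were the brighter ones, and A_54_P3539 had 5 of 10 in rows 1 to 64, where they were the dimmer ones. The local factors divided out, the differences were −0.57 for A_54_P3538 and −0.64 for A_54_P3539 (limma, adjusted p = 0.0419 and 0.0379), and neither probe's groups overlapped. Of all kept probes, 3.65% were then called lower and 11.9% separated the groups in this direction.

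mmu-miR-199a-5p, the opposite arm of the hairpins that give miR-199a-3p, was the member that did not go down as deposited. It was at −3.27, −3.34 and −3.44 (log2) in cold mice 1, 2 and 3 and at −4.82, −3.64 and −3.64 in mice 4, 5 and 6. All 3 cold mice were higher than the other 3, as was so for 20.1% of the miRNAs, and mouse 4 stood far below the rest. The difference was 0.68 ± 0.306 (log2, SE, n = 3; limma, adjusted p = 0.169), with a 95% interval from −0.028 to 1.39. Its only kept probe passed the filter on dim signal only through the cold group, in which it was high. This test therefore cannot show a rise. The difference came to −0.10 ± 0.225 after division by the local factors (limma, adjusted p = 0.791), with a 95% interval from −0.64 to 0.43 and groups that overlapped. That interval holds no change as well as a fall of the size measured for miR-214.

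The value of miR-199a-5p rested on 1 probe, A_54_P2377, of which no spot was printed in array rows 1 to 64, 2 were in rows 65 to 128 and 8 in rows 129 to 192. On the first array of mouse 4, 6 of its 10 spots rose well above background, but 2 of these were outliers and left out. The rest did not pass the limit of over 0.5 of spots, so the probe was kept only through the cold group. Before scaling A_54_P2377 read 65.3, 82.5 and 84.5 units in cold mice 1, 2 and 3 and 42.0, 69.4 and 112.6 units in mice 4, 5 and 6. These groups overlapped fully (exact permutation test, 2-sided, p = 1). The second probe, A_54_P2378, read 2.47, 5.74 and 7.52 units in mice 1 to 3 and 6.81, 9.95 and 15.7 units in mice 4 to 6 (exact permutation test, 2-sided, p = 0.2). No array had more than 4 of its 10 spots well above background, so it was left out and no fold is given.

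The low value of mouse 4 rested mainly on 1 of its 2 arrays. On its first array A_54_P2377 was at −5.68 (log2) and on its second at −3.95, a difference of 1.73, and on the first array 2 of the 10 spots had been marked as outliers by the scanner software and left out. With outlier spots kept the difference for miR-199a-5p was 0.51 (log2; limma, adjusted p = 0.0824), and without mouse 4 it was 0.29. For the other 3 members the 2 arrays of a mouse differed by between 0.0173 and 0.477. The largest was miR-199a-3p in cold mouse 1, whose SD between mice within a group was only 0.0666. Its closeness between mice thus rests partly on averaging 2 unlike arrays.

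**Figure D3:**
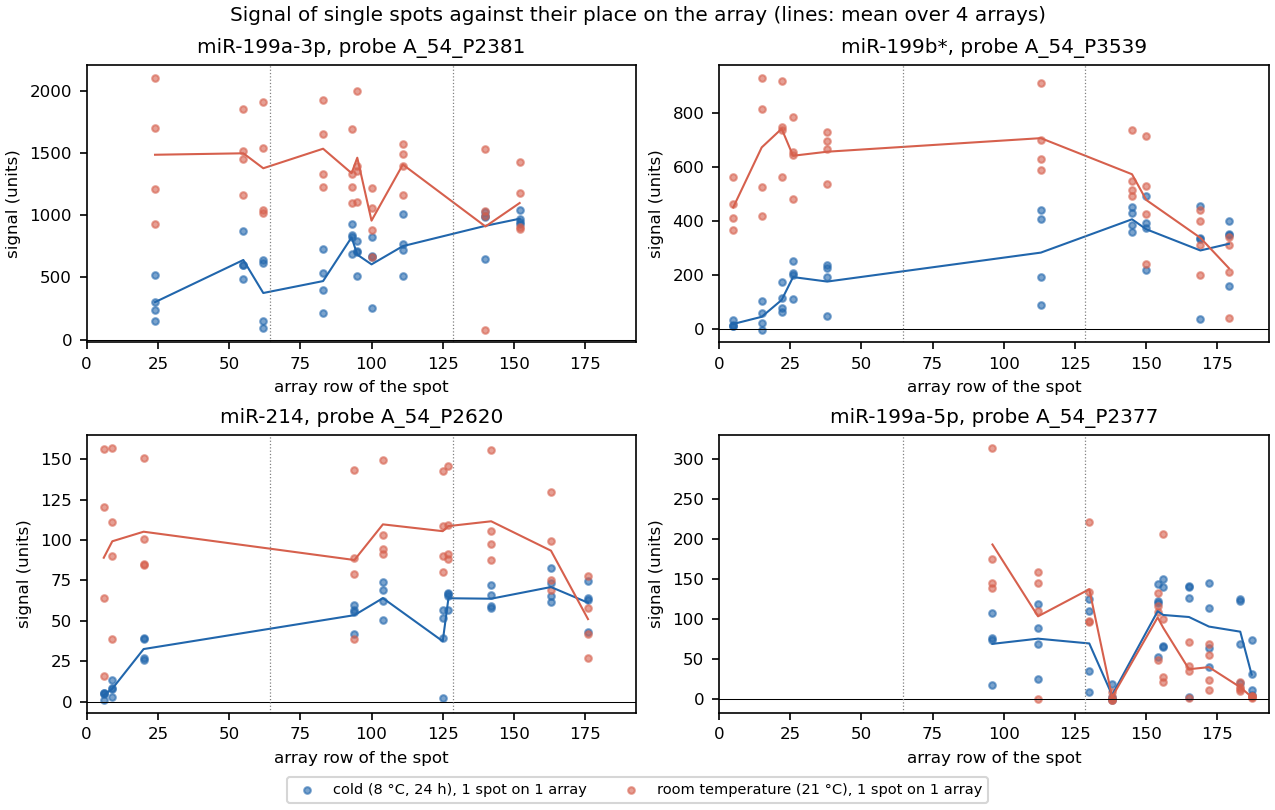
Signal (units) of each spot of 1 probe per member against the array row in which it was printed, with 1 point per spot and array, outlier spots included, and lines through the mean of the 4 arrays of a group (blue cold, red room temperature). The room temperature line was well above the cold one in rows 1 to 64 for the probes that had spots there, while A_54_P2377 of miR-199a-5p had none in those rows.

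The members' spots were compared within 3 stretches of array rows, which matched place only coarsely. On the cold arrays brightness was between 4.43% and 8.36% in rows 1 to 16 and between 58.0% and 75.1% in rows 49 to 64. At room temperature it was between 56.5% and 66.1% in rows 145 to 160 and between 5.35% and 9.12% in rows 177 to 192. A probe's difference within a stretch therefore still depends on the rows of its spots. In rows 1 to 64 the unscaled signal of all kept probes had a median cold over room temperature ratio of −1.53 (log2), in rows 65 to 128 of −0.40 and in rows 129 to 192 of 0.61. In rows 1 to 64 the members' 6 kept probes with spots there ran from −3.15 to −1.69, each below that median. In rows 65 to 128 the 7 kept probes ran from −1.37 to −0.91, again each below the median. In rows 129 to 192 they ran from −0.61 (A_54_P2620 of miR-214) to 0.78 (A_54_P2619 of miR-214), and A_54_P2619 was the 1 probe above the median.

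Scaled and fitted within each stretch (limma with Benjamini-Hochberg adjustment over the miRNAs with spots there), miR-199b* was lower in the cold in all 3. Its differences were −1.15, −0.997 and −0.81 (log2; adjusted p = 0.00553, 0.0492 and 0.046). miR-214 differed by −0.75, −0.51 and −0.54 (adjusted p = 0.0171, 0.133 and 0.0825), and was called in rows 1 to 64. Its values include A_54_P2619, which passed the filter on dim signal only through the room temperature group, in which it was high. A_54_P2620 of miR-214 alone differed by −1.06, −0.46 and −1.25 (limma, adjusted p = 0.0099, 0.151 and 0.0106 over probes). miR-199a-3p differed by −0.39, −0.61 and −0.72 (adjusted p = 0.142, 0.0492 and 0.0756), and was called in rows 65 to 128. For these 3 members the cold mice were below the others, with no overlap, in each stretch. The gradient was not removed within a stretch, so these fits are no position-matched test. The shares of all miRNAs called lower in the 3 stretches were 12.1%, 4.79% and 3.91%, and those with cold mice below the others were 18.1%, 18.1% and 22.9%. miR-199a-5p differed by −0.21 in rows 65 to 128 and by −0.062 in rows 129 to 192 (adjusted p = 0.852 and 0.909), with overlapping groups in both.

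Single probes were less even than their means in these stretches, where each rested on 1 to 8 spots. A_54_P2381 of miR-199a-3p differed by 0.088 in rows 1 to 64 and by −0.97 in rows 129 to 192, while A_54_P2380 of the same miRNA differed by −0.86 and −0.47 (log2). A_54_P2619 of miR-214 differed by −0.43 in rows 1 to 64 and by 0.16 in rows 129 to 192, and A_54_P2620 by −1.06 and −1.25. The probes of miR-199b* were negative throughout, between −1.57 and −0.65.

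**Figure D4:**
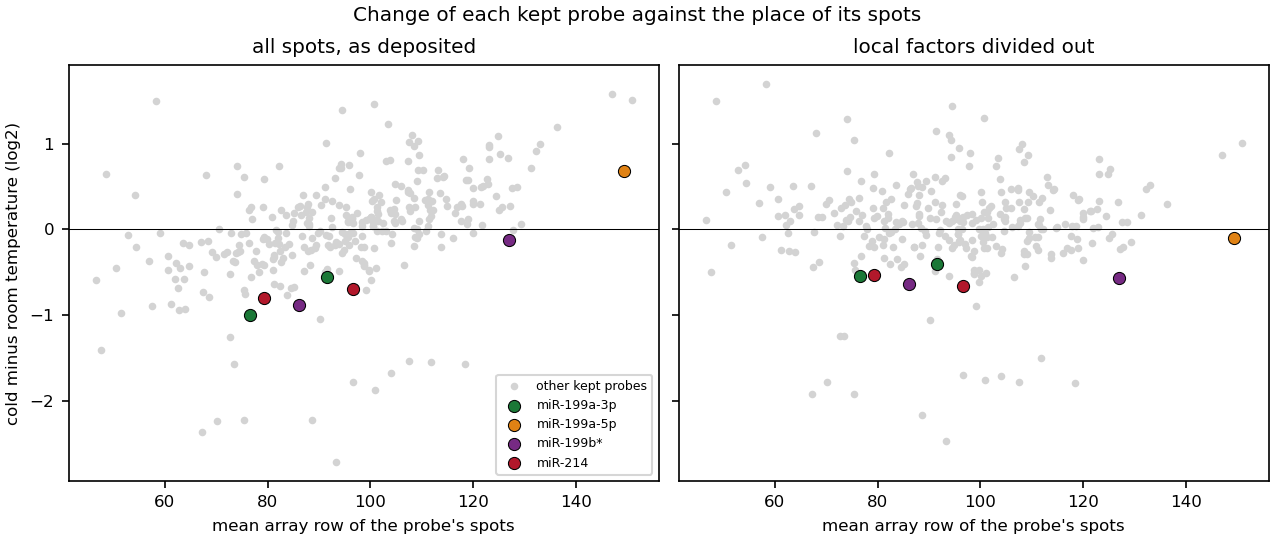
Difference of cold minus room temperature (log2) of each of the 329 kept probes against the mean array row of its spots, from all spots as deposited (left) and with the local factors divided out (right), with the 7 kept member probes in colour. As deposited the differences climbed with the row (r = 0.461 over probes) and A_54_P2377 of miR-199a-5p lay at mean row 149.3, while on the right no such trend remained (r = −0.00054).

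Over all 329 kept probes the difference rose with the share of spots in rows 129 to 192. Its median was −0.27 for the 42 probes with under 15% of their spots there, −0.073 for the 149 with 15 to 35%, 0.23 for the 117 with 35 to 55% and 0.61 for the 21 with 55% or more. A_54_P2377 of miR-199a-5p, at 0.68, and A_54_P3538 of miR-199b*, at −0.13, were both in the last class, so the first lay near that class's median and the second below its lower quartile of 0.12. The correlation of mean row with the difference was 0.461 (Pearson; Spearman 0.546) across probes, which share arrays and are not independent. After division by the local factors it was −0.00054.

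The members were next compared with each other within the mouse, in 6 pairs. Since 3 mice against 3 allow no exact permutation p below 0.1, none of the 6 could pass the threshold. The arms of the miR-199a hairpins moved apart as deposited: the level of miR-199a-3p over miR-199a-5p was 2.29 ± 0.0705 in the cold and 3.75 ± 0.728 at room temperature (log2, SD, n = 3), a difference of −1.46 (exact permutation test, 2-sided, p = 0.1, adjusted 0.12). Position taken into account, it was −0.37 with overlapping groups (exact permutation p = 0.2, adjusted 0.3). miR-199a-5p minus miR-214 differed by 1.43 and miR-199a-5p minus miR-199b* by 1.19 as deposited, and by 0.49 and 0.50 with the factors divided out, and these pairs did not overlap between the groups either way (exact permutation p = 0.1, adjusted 0.12 as deposited and 0.2 after). All pairs with miR-199a-5p rest on a probe kept only through the cold group, in which it was high as deposited. Their p-values therefore cannot show that the members moved apart. With the second arrays of mice 1 and 4, miR-199a-3p over miR-199a-5p differed by −1.13, with a room temperature SD of 0.291.

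The pairs without miR-199a-5p had smaller differences. miR-199a-3p minus miR-214, a member of high against one of low signal, differed by −0.025 as deposited (exact permutation p = 0.9, adjusted 0.9) and by 0.12 with the local factors divided out (exact permutation p = 0.3, adjusted 0.36). miR-199a-3p minus miR-199b*, opposite arms whose signals can share the Mir199b hairpin as a source, differed by −0.27 and then by 0.13 (exact permutation p = 0.1 for both, adjusted 0.12 and 0.2), so its sign turned. miR-199b* minus miR-214 differed by 0.25 and then by −0.012 (exact permutation p = 0.1 and 1, adjusted 0.12 and 1). The miR-214 values in these pairs include A_54_P2619, which passed the filter on dim signal only through the room temperature group, in which it was high. These p-values show neither that the members changed alike nor that they moved apart.

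Each slide column held 1 cold array and 1 room temperature array. Mice 1 and 4 shared columns 1 and 4, mice 2 and 5 column 2, and mice 3 and 6 column 3, which gave 3 pairs of mice. With the arrays of a mouse averaged, miR-199a-3p differed across these pairs by −0.78, −0.86 and −0.69, miR-199b* by −0.42, −0.63 and −0.47, and miR-214 by −0.56, −0.72 and −0.96 (log2). miR-199a-5p differed by 1.55, 0.30 and 0.20, and with the local factors divided out by 0.55, −0.37 and −0.49. The first 3 members were thus lower in the cold mouse of every pair. This had to be so under any pairing, since their cold mice all lay below the others, and it adds no support. Groups separated in this direction for 18.5% of the miRNAs tested. miR-199a-5p had no common sign once position was taken into account.

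The miRNAs whose levels over the 6 mice ran most like those of miR-199a-3p were miR-34b-5p, miR-214, miR-24-1*, miR-199b* and miR-340-5p, at a root mean square difference of 0.0355, 0.124, 0.142, 0.152 and 0.198 (log2, each miRNA centred on its own mean), against a median of 0.447 over all miRNAs. So 2 of the 5 nearest were members, and miR-199a-5p was at rank 179 as deposited and at rank 90 with the local factors divided out. The 5 named were then at ranks 1, 4, 6, 3 and 14 in that order. The nearest to miR-214 were miR-199a-3p, miR-34b-5p, miR-24-1*, miR-340-5p and miR-149, at 0.124, 0.127, 0.146, 0.161 and 0.170. With the local factors divided out they were at ranks 1, 2, 10, 14 and 3 in that order. miR-34b-5p lay at the floor of the scale in 2 cold mice, so its likeness is limited by that floor. These ranks include the difference between the groups itself and are a description.

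No other listed miRNA of fibroblasts, smooth muscle and related cells was called as deposited, where 15.3% of all miRNAs were called and 99 of 189 were negative. Of 12 listed, 10 were on the array under these names and 7 were tested: 0 passed limma's test (1 at an unadjusted p under 0.05), with 6 negative and 1 positive difference and a median of −0.21, against −0.022 over all miRNAs, of which 62 (32.8%) had an unadjusted limma p under 0.05. The largest by p were miR-99a at −0.40 ± 0.128, miR-125b-5p at −0.43 ± 0.192 and miR-100 at −0.21 ± 0.128 (log2, SE, n = 3; limma, adjusted p = 0.0741, 0.169 and 0.299). After division by the local factors miR-99a alone was called, at −0.44 ± 0.0935 (limma, adjusted p = 0.0302), where 5.29% of all miRNAs were called lower, and the median of the 7 was −0.13. The smooth muscle miRNA miR-145 read at most 5.21 units on the cold arrays and 9.89 units on the others and was not tested, and its cluster partner miR-143 differed by −0.52 ± 0.420 with overlapping groups (limma, adjusted p = 0.423). The summed normalised level of the 7 was between 0.79 and 1.15 in the cold and between 1.15 and 1.35 at room temperature (log2), so its ranges just touched.

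Of the miRNAs known from fibrosis, miR-21 and the miR-29 family, 4 of 4 were tested and 0 were called by limma either way (1 at an unadjusted p under 0.05 as deposited, 0 after division by the local factors). Of all 189 miRNAs, 15.3% were called as deposited and 15.9% after division, and 62 and 61 had an unadjusted limma p under 0.05. The median difference of the 4 was −0.27, with all 4 negative, as were 99 of all 189 miRNAs. miR-29c differed by −0.34 ± 0.121 and miR-21 by −0.30 ± 0.158 (log2, SE, n = 3; limma, adjusted p = 0.0957 and 0.228), each with cold mice below room temperature mice, as was so for 18.5% of the miRNAs tested. Position taken into account, their median was −0.19.

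Markers of other tissue parts moved between the same mice. Of the striated muscle miRNAs, 3 of 4 tested were called lower, against 6.88% of all miRNAs (miR-133b, miR-133a and miR-206, at −1.97, −1.88 and −2.05; limma, adjusted p = 0.0228, 0.0229 and 0.0453), and with the local factors divided out 2 were, against 5.29%. The summed muscle level was between 0.57 and 2.69 in the cold and between 2.91 and 3.47 at room temperature (log2). Of the brown adipocyte list, 2 of 6 were called higher, against 8.47% of all miRNAs (miR-193b at 0.64 and miR-378 at 0.97; limma, adjusted p = 0.0129 and 0.0219). The summed level of that list was between 3.12 and 3.58 in the cold and between 2.81 and 3.08 at room temperature. With the local factors divided out 3 of the 6 were called higher, against 10.6% of all miRNAs (miR-182 at 0.65, miR-193b at 0.44 and miR-378 at 0.59; limma, adjusted p = 0.0167, 0.0316 and 0.0492). All 6 of its members passed the filter on dim signal.

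Among blood and vessel markers, 0 of 6 leukocyte, 0 of 2 endothelial and 0 of 3 erythroid miRNAs were called by limma as deposited (1, 0 and 2 at an unadjusted p under 0.05), with median differences of −0.35, −0.22 and 0.64. Of all 189 miRNAs, 15.3% were called as deposited and 62 (32.8%) had an unadjusted limma p under 0.05. With the local factors divided out 61 had such a p. The summed levels of these 3 lists in the cold were between −0.72 and 0.051, between 3.17 and 3.59 and between 4.12 and 4.80, and at room temperature between 0.068 and 0.17, between 3.48 and 3.69 and between 3.62 and 3.92 (log2). With the local factors divided out 1 of the 3 erythroid miRNAs was called higher, against 10.6% of all miRNAs (miR-451 at 0.68; limma, adjusted p = 0.0334), and 0 of the leukocyte and endothelial miRNAs were (1 and 0 at an unadjusted limma p under 0.05). The part of muscle, blood or other cells in the members' differences was not tested.

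**Figure D5:**
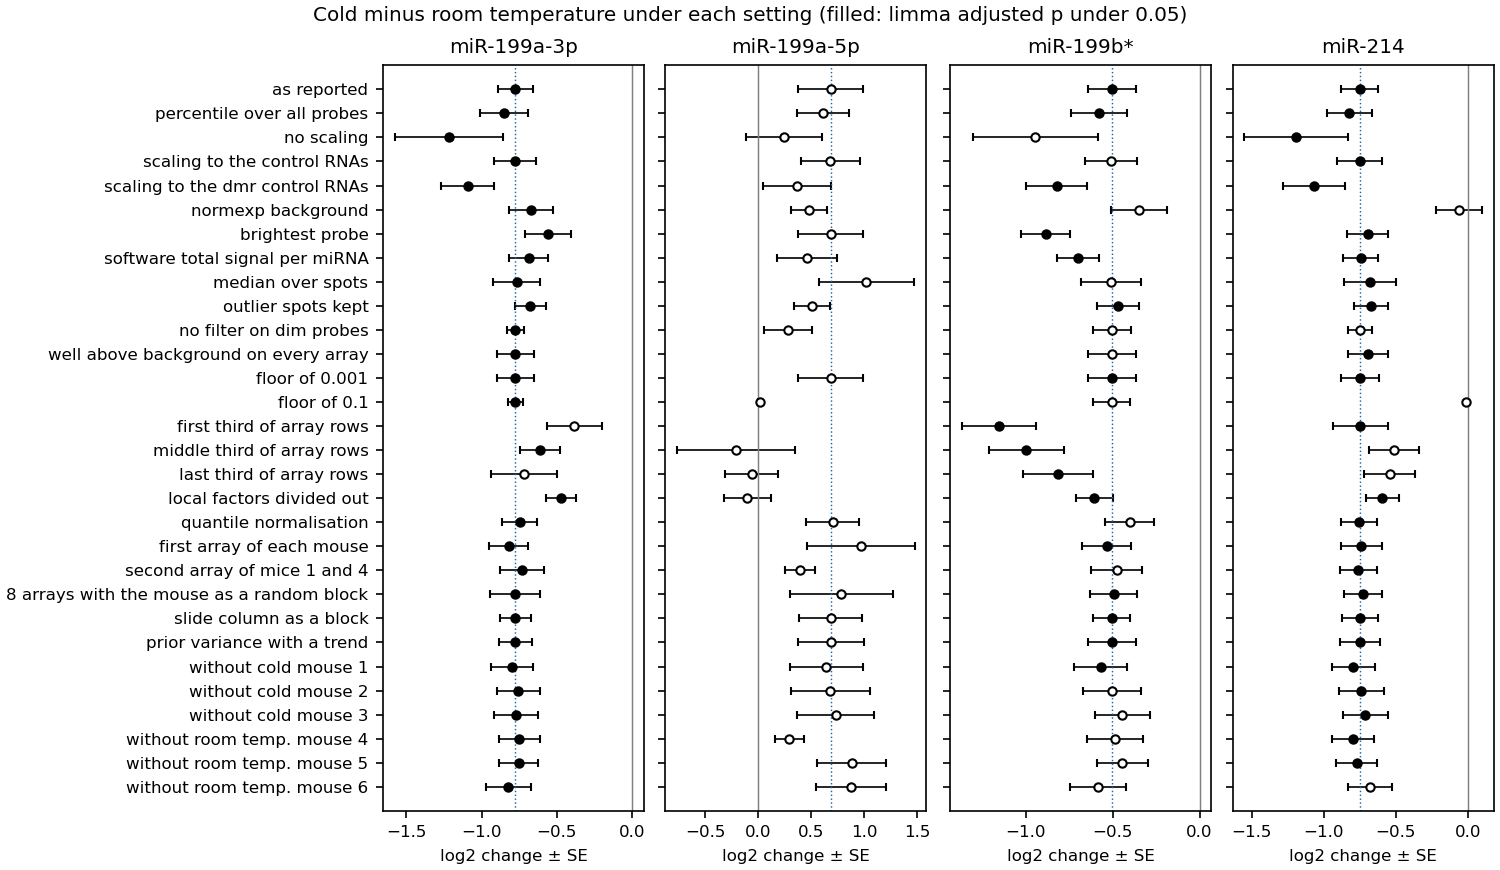
Difference of cold minus room temperature (log2 ± SE) of each member under every setting tried, with filled points where limma's adjusted p was under 0.05 and a dotted line at the reported value. miR-199a-3p, miR-199b* and miR-214 were below 0 under each setting, though miR-214 came to −0.064 and −0.012 under the normexp background and the floor of 0.1, while miR-199a-5p was above 0 under all but the settings that restrict or adjust for array rows. Under the floor of 0.1 miR-199a-5p was barely above 0, where its difference exceeded that of miR-214 by only 0.031.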

How the data were processed

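The files are scanner output of 1 array each, with spot intensity in linear, background-subtracted units as deposited (Agilent Feature Extraction 10.7.3.1 per the file headers, 9.5.3.1 per the submitters' processing notes). The authors' deposited value table held the same intensity values (largest difference 0). The members, lists and rules were chosen with earlier results of these data known. Named miRNAs were the members, the 5 nearest to miR-199a-3p and to miR-214, and at most 3 per list by smallest p, besides miR-145, miR-143 and miR-214*, named after their values were seen.

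The scanner software's outlier spots, 2.09% to 2.63% of an array's, were dropped; saturation was seen in 0 spots. The rest were averaged per probe, divided by the array's 75th percentile over the 267 probes well above background on all arrays, floored at 0.01, put on the log2 scale and averaged over kept probes. Arrays of a mouse were averaged, and limma 3.58.1 (R 4.3.3) was run with Benjamini-Hochberg adjustment. Local factors came from 12 bands of rows and 8 of columns, estimated per array from probes well above background, and spots with a factor under 0.25 (7.98% to 20.3% per array) were left out. The alternatives (scaling, background, spots, probes, filters, floors, arrays, mice left out) are given under the dependence on processing; normexp used the median spot intensity. The number of arrays limits precision.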

Additional observations from a re-analysis of the deposited data

How the results depend on the processing

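The differences of miR-199a-3p, miR-199b* and miR-214 kept their sign under all 29 alternatives, of which 5 were chosen after seeing the data: rows 1 to 64, rows 65 to 128, rows 129 to 192, local factors divided out, and scaling to 8 control RNA probes of the dmr series. miR-199a-5p turned negative in rows 65 to 128 (−0.21), in rows 129 to 192 (−0.062) and with local factors divided out (−0.10), as did its probe A_54_P2377, which is its whole value. Calls were lost by limma as follows. miR-199a-3p was not called in rows 1 to 64 (−0.39) or rows 129 to 192 (−0.72). miR-214 was not called with the normexp background (−0.064, offset of 50 units), with a floor of 0.1 (−0.012, most values at the floor), with no filter (−0.75, 566 miRNAs tested), in rows 65 to 128 (−0.51) or in rows 129 to 192 (−0.54). miR-199b* was not called with no scaling (−0.95), scaling to the control RNAs (−0.51), normexp (−0.35), the median over spots (−0.51), no filter (−0.50), the filter on every array (−0.50), the floor of 0.1 (−0.50), quantile normalisation (−0.40) or the second arrays of mice 1 and 4 (−0.48); apart from no filter, which tests more miRNAs, the cause was not tested. Leaving out 1 mouse gave −0.82 to −0.75 for miR-199a-3p, 0.29 to 0.88 for miR-199a-5p, −0.58 to −0.44 for miR-199b* and −0.80 to −0.68 for miR-214.

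The 16 miRNAs called higher and 13 called lower became 3 to 19 and 5 to 14 without 1 mouse (3 higher and 5 lower without mouse 6). Calls higher and lower were 1 higher with no scaling, 3 and 33 with the dmr control RNAs, 2 and 4 with normexp, 2 and 3 with no filter and with the floor of 0.1, 10 and 6 with the filter on every array, 47 and 22 in rows 1 to 64, 5 higher in rows 65 to 128, and 9 and 7 in rows 129 to 192. There were 20 lower with the total signal per miRNA and 21 lower with quantile normalisation. The median of all miRNAs moved to −0.46 with no scaling, −0.34 with the dmr control RNAs, 0.21 with normexp and 0.13 in rows 1 to 64. Against −0.46 and −0.34, miR-199a-3p was at −1.22 and −1.09, miR-214 at −1.19 and −1.07, and miR-199b* at −0.95 and −0.82.

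Among probes, A_54_P2381 turned to 0.088 in rows 1 to 64, A_54_P2619 to 0.16 in rows 129 to 192 and A_54_P3538 to 0.14 with the median over spots. Among pairs, miR-199a-3p minus miR-199b* turned to 0.33 with the brightest probe, 0.013 with the total signal, 0.76, 0.39 and 0.10 in the 3 stretches of rows and 0.13 with local factors divided out. miR-199a-3p minus miR-214 turned to 0.14 (brightest probe), 0.057 (total signal), 0.36 (rows 1 to 64), 0.12 (local factors), 0.011 (quantile) and 0.031 (second arrays). miR-199b* minus miR-214 turned to −0.28 (normexp), −0.19 (brightest probe), −0.49 (floor of 0.1), −0.41, −0.48 and −0.27 (stretches of rows) and −0.012 (local factors). The groups share no mouse number, so mice could be paired only by slide column, where mice 1 and 4 shared columns 1 and 4. With these pairs of mice as a block limma gave the same differences, at adjusted p = 0.0187 (miR-199a-3p), 0.0396 (miR-199b*), 0.0233 (miR-214) and 0.171 (miR-199a-5p), which changed no member's call.

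Limits: 3 mice per group on 1 slide, with slide row and group the same split; a brightness gradient that differs between the groups and can be divided out only as far as row and column bands describe it; probes of miR-214 and miR-199a-5p near background; and names and probe designs of an old array, so that loci with identical mature sequence were read together.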
